A study of Homo sapiens with 6 samples.

Results

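The genes described here are 10 genes of the death receptor and caspase-8 pathway, chosen by name from the 27734 gene rows of an RNA sequencing series on PC-3, an established line of human prostate cancer cells. They are the ligand TNFSF10, the receptors TNFRSF10A, TNFRSF10B, TNFRSF10D, FAS, TNFRSF1A, TNFRSF12A and TNFRSF21, the inhibitor CFLAR and the protease CASP8. All 10 symbols were found once each in the tables. The resistant line (PC-3-GDC-R) was kept under continuous GDC-0068, also called ipatasertib, which inhibits AKT kinases, and the control line (PC-3-control) was carried beside it in the vehicle DMSO. Both lines grew in RPMI 1640 with fetal bovine serum and were at passages 20 to 30. The series asks how RNA levels differ between these lines, with 3 libraries of total RNA in each group. The dose, whether drug was present at harvest, and whether the resistant line is a clone or a pool were not stated in the labels. Nothing there says that replicates were grown as separate cultures, so p-values reflect only the scatter among these libraries, which may be technical.

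Death receptors are members of the tumour necrosis factor (TNF) receptor family that carry a cytoplasmic death domain. When TNFSF10 (TRAIL) or FAS ligand binds its receptor, the adaptor FADD joins the receptor tail and gathers caspase-8, which is activated by proximity and cleaves downstream caspases and BID. CFLAR encodes c-FLIP, a caspase-8-like protein without protease activity that competes for places in this complex. TNFRSF1A (TNF receptor 1) works differently: it first assembles a complex of TRADD, RIPK1, TRAF proteins and ubiquitin ligases that signals to NF-kB, and turns to caspase-8 when that complex fails. Receptors that bind TRAIL without a working death domain are called decoys.

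Summed gene counts were 35562400 to 44279078 fragments per library. The label of the cell line was checked against markers: the epithelial genes KRT8, KRT18, KRT19, EPCAM and CDH1 were all expressed, with a summed level of 1273 to 1536 FPKM (fragments per kilobase of gene model, scaled to library depth) over the 6 libraries, while KLK3 and KLK2 had 0 fragments in every library. Of 8 leukocyte markers, only CD68 reached a mean of 1 FPKM, and the list summed to 15.6 to 16.4 FPKM in control and 35.01 to 36.9 in resistant libraries. CD68, a lysosomal protein that is not restricted to leukocytes, made up most of that sum. Of 8 fibroblast and endothelial markers, only COL1A1 reached a mean of 1 FPKM, and that list summed to 3.44 to 4.50 FPKM in control and 2.20 to 2.44 in resistant libraries. The part of these markers in the results was not tested. Control replicate 1 stood apart by base composition: across 12503 genes its deviation from the control mean was correlated with the GC content of the transcripts at a Spearman's rho of -0.751, against 0.594 and 0.638 in control replicates 2 and 3 and -0.201 to 0.202 in the resistant libraries. Genes are not independent replicates, so these correlations are descriptions. Values without control replicate 1 are therefore given beside the fitted changes of the 8 tested genes, and for some other genes where the call or the size changed. Values by library are listed in the order of replicates 1, 2 and 3.

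CFLAR and FAS were higher and TNFRSF1A was lower in resistant cells, and these were the 3 largest changes among the 8 genes that could be tested. TNFRSF21 and TNFRSF12A were slightly higher and CASP8 slightly lower. The TRAIL receptors TNFRSF10A and TNFRSF10B did not pass the test. Of the 10 genes, 8 passed the filter on low values (a mean of at least 1 FPKM over the 6 libraries), and TNFSF10 and TNFRSF10D did not. Among those 8, 4 rose and 2 fell at an adjusted p under 0.05 (edgeR quasi-likelihood test on fragment counts, Benjamini-Hochberg over 13070 genes). Over all tested genes 24.5% rose and 25.7% fell, together 50.2%, so a call by itself is common in this comparison and sets none of these genes apart. The FPKM ranges of the groups did not overlap for 6 of the 8 genes, against 60.5% of all tested genes. The median log2 fold change of the 8 genes was 0.11, against -0.01 over all tested genes, and none changed by 2-fold, which 2.1% of tested genes did upward and 1.31% downward with a call. Without control replicate 1, 4 of the 8 genes rose and 2 fell, where 31.9% of all tested genes rose and 32.9% fell. Bulk RNA cannot tell fewer cells that express a gene from less RNA per cell.

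**Figure D1:**
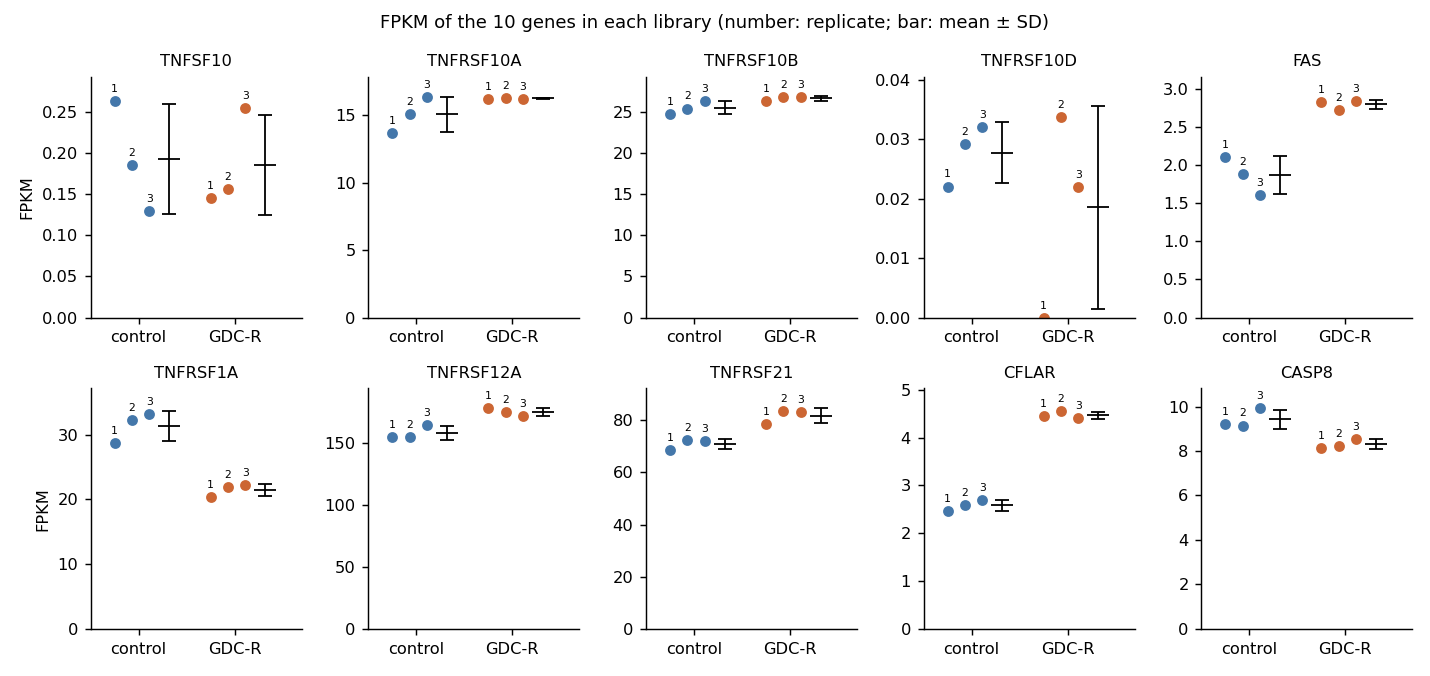
FPKM (y axis, from 0, with its own scale in each panel) of the 10 genes in the 3 control and 3 GDC-R libraries; points are libraries numbered by replicate and the bar is the mean ± SD. The groups are clearly apart for CFLAR, FAS and TNFRSF1A, and overlap for TNFSF10, TNFRSF10A, TNFRSF10B and TNFRSF10D.

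The RefSeq promoter windows of the 3 genes that changed most are shown because these genes changed most and in opposite directions; each is the 250 bases before the most upstream RefSeq start in the table, read 5′ to 3′ on the strand of the gene in GRCh38.p14. They lie at chr2:201118466-201118715 (plus strand) for CFLAR, chr10:88990548-88990797 (plus strand) for FAS and chr12:6342077-6342326 (minus strand) for TNFRSF1A. Capitals mark matches, on either strand, to TGANTCA (the AP-1 motif) or to GGG and CC with any 5 bases between (a loose form of the NF-kB motif).
CFLAR: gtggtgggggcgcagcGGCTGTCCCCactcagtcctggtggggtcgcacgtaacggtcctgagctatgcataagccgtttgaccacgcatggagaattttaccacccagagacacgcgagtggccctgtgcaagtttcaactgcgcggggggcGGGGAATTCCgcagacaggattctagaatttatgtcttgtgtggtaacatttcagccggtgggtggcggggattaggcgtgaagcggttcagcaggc
FAS: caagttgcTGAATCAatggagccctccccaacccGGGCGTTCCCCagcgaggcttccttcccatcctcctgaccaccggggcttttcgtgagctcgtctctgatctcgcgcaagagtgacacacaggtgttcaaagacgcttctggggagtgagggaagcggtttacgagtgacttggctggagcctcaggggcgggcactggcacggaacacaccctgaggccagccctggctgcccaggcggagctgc
TNFRSF1A: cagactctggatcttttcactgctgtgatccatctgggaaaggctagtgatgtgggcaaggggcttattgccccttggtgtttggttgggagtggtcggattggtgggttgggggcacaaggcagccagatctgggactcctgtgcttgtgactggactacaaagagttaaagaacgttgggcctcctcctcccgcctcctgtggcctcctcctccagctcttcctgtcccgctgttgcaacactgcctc

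In the whole window of 300 bases, which also holds 50 bases after the start, this CFLAR start had 2 matches to the loose NF-kB motif, and this FAS start had 2 overlapping matches to it and 1 to TGANTCA. The TNFRSF1A window held none of these letters. GTAAACA (the FOXO motif) was searched as well and was in none of the 13 windows of the 6 genes off chromosome 8 that have an entry, TNFSF10 included. TNFRSF12A had no entry. Of these 13 windows, 9 held the loose NF-kB motif and 4 held TGANTCA, and a window of CASP8, which was slightly lower, held both. Among 35116 RefSeq windows of the same length, 58.7% held the loose NF-kB motif, 7.71% TGANTCA and 3.42% GTAAACA. FAS has 3 windows in the table and CFLAR 4, and the fragment counts do not say which start was used. A match is only a run of letters and is no evidence of binding.

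The ligand TNFSF10, which encodes TRAIL, was near the lower limit of these libraries. It had 31, 22 and 14 fragments in the control libraries and 15, 20 and 30 in the resistant libraries, which is 0.263, 0.185 and 0.130 FPKM against 0.145, 0.156 and 0.255 FPKM. The groups overlapped fully, at 0.193 ± 0.0671 and 0.185 ± 0.0603 FPKM (SD, n = 3 each). In the edgeR fit without a filter its log2 fold change was -0.11, with a 95% interval of -0.82 to 0.60 and a Benjamini-Hochberg adjusted p of 0.826. The interval holds a change of 1.5-fold in either direction, so such a change was not excluded. TNFSF10 lies at chr3:172223298-172241297 on the minus strand (hg19, as are all gene positions below).

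The receptors TNFRSF10A (DR4) and TNFRSF10B (DR5), which carry death domains and transmit the TRAIL signal, were well expressed. TNFRSF10B was measured at 24.8, 25.4 and 26.4 FPKM in the control libraries and at 26.3, 26.8 and 26.8 FPKM in the resistant libraries. TNFRSF10A was measured at 13.7, 15.1 and 16.4 FPKM in control and at 16.2, 16.3 and 16.2 FPKM in resistant libraries. For both genes the highest control library reached the resistant range, and control replicate 1 was the lowest of the 6. The log2 fold change of TNFRSF10B was 0.04 ± 0.04 (SE) with a 95% interval of -0.05 to 0.14 (adjusted p = 0.424 in edgeR's quasi-likelihood test). That of TNFRSF10A was 0.09 ± 0.07 with an interval of -0.07 to 0.25 (adjusted p = 0.314). The intervals bound the ratio of resistant to control RNA at 0.963 to 1.10 for TNFRSF10B and 0.952 to 1.19 for TNFRSF10A. Without control replicate 1 the log2 fold changes were 0.03 for TNFRSF10B and 0.04 for TNFRSF10A. The TNFRSF10B model overlaps RHOBTB2 by 63 bases on the opposite strand, and RHOBTB2 had a log2 fold change of -0.02 ± 0.05. LOC389641, next to TNFRSF10A, was at -0.14 ± 0.09 and did not pass either.

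TNFRSF10D, a TRAIL receptor with a truncated death domain that acts as a decoy, was barely detected. It had 3, 4 and 4 fragments in the control libraries and 0, 5 and 3 in the resistant libraries. The 0 fragments in resistant replicate 1 allow a level of up to 0.0252 FPKM, taken as 3 counts, and cover counting error only. No change is given for counts this low. TNFRSF10D made up 0.0571%, 0.0713% and 0.0748% of the summed FPKM of the 4 TRAIL receptor genes in the control libraries, against 0%, 0.0765% and 0.04996% in the resistant libraries. The ranges of this share overlapped (two-sided exact permutation test over 6 libraries, p = 0.4, where 0.1 is the smallest p possible).

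TNFRSF10C and TNFRSF11B, a pair of decoy genes outside the 10 and on the list of other pathway genes, were higher in resistant cells. TNFRSF10C is named as a neighbour of TNFRSF10D, and TNFRSF11B was chosen after its values were seen. TNFRSF10C, a TRAIL decoy receptor anchored in the membrane without a cytoplasmic tail, had 9, 20 and 9 fragments in the control libraries and 33, 59 and 60 in the resistant libraries, or 0.224 ± 0.105 and 0.881 ± 0.201 FPKM (SD, n = 3 each). It was under the filter, and the edgeR fit without a filter, in which 36.3% of 22112 genes were called, 17.3% upward and 19.0% downward, gave a log2 fold change of 1.91 ± 0.31 (Benjamini-Hochberg adjusted p = 0.000164). The gene overlaps LOC254896 on the same strand, which rose by 1.10 ± 0.17 on the log2 scale, so fragments of the pair may not be separable. TNFRSF11B encodes osteoprotegerin, a secreted decoy for RANK ligand that also binds TRAIL. Its level was 0.632, 0.605 and 0.460 FPKM in control and 4.42, 4.42 and 4.30 FPKM in resistant libraries, so the groups were far apart. The log2 fold change was 2.92 ± 0.12 (edgeR adjusted p = 9.98e-07), and 3.02 without control replicate 1. With a control mean of 0.566 FPKM, TNFRSF11B passed the filter of 1 FPKM over the 6 libraries only through the resistant group. TNFRSF6B, a secreted decoy for FAS ligand that was also chosen after its values were seen, did not pass: it was at 4.59 ± 0.585 FPKM in control and 4.31 ± 0.197 in resistant cells, with a log2 fold change of -0.11 ± 0.11 (adjusted p = 0.446).

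**Figure D2:**
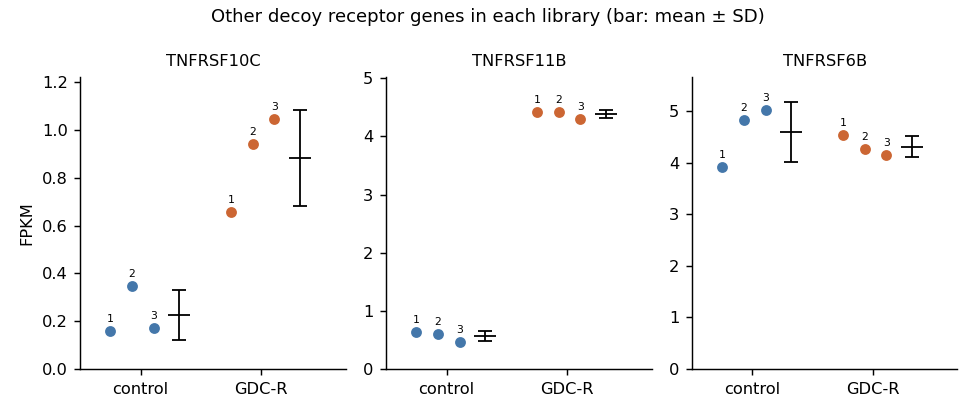
FPKM (y axis, from 0) of TNFRSF10C, TNFRSF11B and TNFRSF6B in each control and GDC-R library; points are libraries numbered by replicate and the bar is the mean ± SD. The resistant libraries sit above all control libraries for TNFRSF10C and TNFRSF11B, and within the control range for TNFRSF6B.

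FAS, the receptor of FAS ligand, was low but higher in every resistant library. It was measured at 2.11, 1.88 and 1.61 FPKM in the control libraries (346, 312 and 242 fragments) and at 2.83, 2.73 and 2.84 FPKM in the resistant libraries (407, 489 and 467 fragments). The lowest resistant library was above the highest control library, which was control replicate 1. Its fitted log2 fold change was 0.56 ± 0.11 (SE), or 1.48-fold (edgeR quasi-likelihood with Benjamini-Hochberg adjusted p = 0.00244), and 0.66 without control replicate 1. FAS kept its call in all 14 alternatives in which it was tested, with log2 fold changes of 0.41 to 0.67. The gene lies at chr10:90750316-90776818 on the plus strand. Its model overlaps ACTA2 by 839 bases on the opposite strand, and ACTA2 rose by 0.87 ± 0.18 on the log2 scale at a mean of 1.24 FPKM. No source says whether fragments were counted by strand, and the part of ACTA2 fragments in the FAS count was not tested. FASLG, the gene of FAS ligand, likewise chosen with its values known, had 10 fragments summed over the control libraries and 10 over the resistant libraries.

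TNFRSF1A, which encodes TNF receptor 1, fell in resistant cells. Its level was 28.8, 32.3 and 33.1 FPKM in the control libraries and 20.4, 21.9 and 22.2 FPKM in the resistant libraries. Every resistant library lay below every control library by more than the spread within either group. The log2 fold change was -0.57 ± 0.06 (SE), 1.48-fold lower (edgeR quasi-likelihood, adjusted p = 0.000160), and -0.62 without control replicate 1. The call was kept in all 15 alternatives, from -0.62 to -0.52. TNFRSF1A lies at chr12:6437923-6451283 on the minus strand, and no other gene model of the tables overlaps it. Its partners in the first complex moved in different directions: TRADD, the adaptor that binds its death domain, fell from 14.2 ± 0.604 to 11.4 ± 0.959 FPKM (mean and SD of 3 libraries; log2 change -0.34 ± 0.08), whereas the kinase RIPK1 rose from 11.4 ± 0.369 to 13.3 ± 0.183 FPKM (0.20 ± 0.05). The adjusted p was 0.00745 for TRADD and 0.00945 for RIPK1 in edgeR's test.

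TNFRSF12A (Fn14), the receptor of the ligand TWEAK, which signals through TRAF proteins and has no death domain, had the highest level of the 10 genes in both groups. It was measured at 155.1, 154.9 and 164.7 FPKM in the control libraries and at 178.2, 175.2 and 171.7 FPKM in the resistant libraries. The groups did not overlap, but the step between them was small. Its fitted log2 fold change was 0.13 ± 0.04 (SE; edgeR adjusted p = 0.0401), and 0.12 without control replicate 1. The call was lost in 7 of 15 alternatives: without control replicate 2 (0.11), without resistant replicate 1 (0.12), 2 (0.13) or 3 (0.15), with a GC correction (0.11), without a filter (0.10) and with a replicate block (0.13). TNFSF12, which encodes TWEAK, was at 6.57 ± 0.813 and 7.29 ± 0.0903 FPKM (SD, n = 3 each), with a log2 fold change of 0.13 ± 0.10 (adjusted p = 0.276), and of 0.04 without control replicate 1. TNFRSF12A lies at chr16:3070313-3072383 on the plus strand.

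TNFRSF21 (DR6), a receptor with a death domain, was the second most abundant of the 10 genes and rose by a small step. Its level was 68.7, 72.3 and 71.9 FPKM in the control libraries and 78.5, 83.5 and 83.3 FPKM in the resistant libraries. The ranges did not overlap. The log2 fold change was 0.18 ± 0.04 (SE; edgeR adjusted p = 0.00723), and 0.17 without control replicate 1. In contrast to TNFRSF12A, its call was kept in all 15 alternatives, from 0.14 to 0.22. The gene lies at chr6:47199263-47277683 on the minus strand.

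CFLAR rose most among the 8 tested genes. It was measured at 2.47, 2.59 and 2.70 FPKM in the control libraries (1513, 1598 and 1514 fragments) and at 4.44, 4.55 and 4.40 FPKM in the resistant libraries (2382, 3038 and 2696 fragments). The gap between the groups was far wider than the spread within them. Its fitted log2 fold change was 0.77 ± 0.05 (SE), or 1.703-fold (edgeR quasi-likelihood, adjusted p = 9.26e-06), and 0.74 without control replicate 1. The call was kept in all 14 alternatives in which the gene was tested, from 0.61 to 0.81. CFLAR lies at chr2:201980827-202037411 on the plus strand. The antisense gene CFLAR-AS1 lies wholly within it and rose by 0.47 ± 0.15 on the log2 scale, a call lost without control replicate 2 (0.42) or resistant replicate 2 (0.31). Without a stated strand setting, fragments of CFLAR and CFLAR-AS1 cannot be told apart. The deposited gene model of CFLAR is 15921 bases long, against 3641 for CASP8, so its level per length rests on an unusually long model, and the counts do not separate the long and short c-FLIP forms.

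CASP8, which encodes the initiator caspase of the pathway, was slightly lower in resistant cells. Its level was 9.20, 9.15 and 9.92 FPKM in the control libraries and 8.12, 8.22 and 8.56 FPKM in the resistant libraries. The ranges did not overlap. The log2 fold change was -0.20 ± 0.06 (SE; edgeR adjusted p = 0.0203), and -0.21 without control replicate 1. The call was lost in 5 of 15 alternatives: without control replicate 3 (-0.16), without resistant replicate 1 (-0.18), 2 (-0.19) or 3 (-0.22) and with a GC correction (-0.13). CASP8 lies at chr2:202098166-202152434 on the plus strand, beside CASP10, a related caspase that the same complex can recruit. CASP10 was under the filter at 0.796 ± 0.0691 FPKM in control and 0.830 ± 0.0783 in resistant cells, and CFLAR, CASP10 and CASP8 follow each other on the same strand. NDUFB3, the gene before CFLAR, had a log2 fold change of -0.19 ± 0.06, a call lost without resistant replicate 1, 2 or 3.

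**Figure D3:**
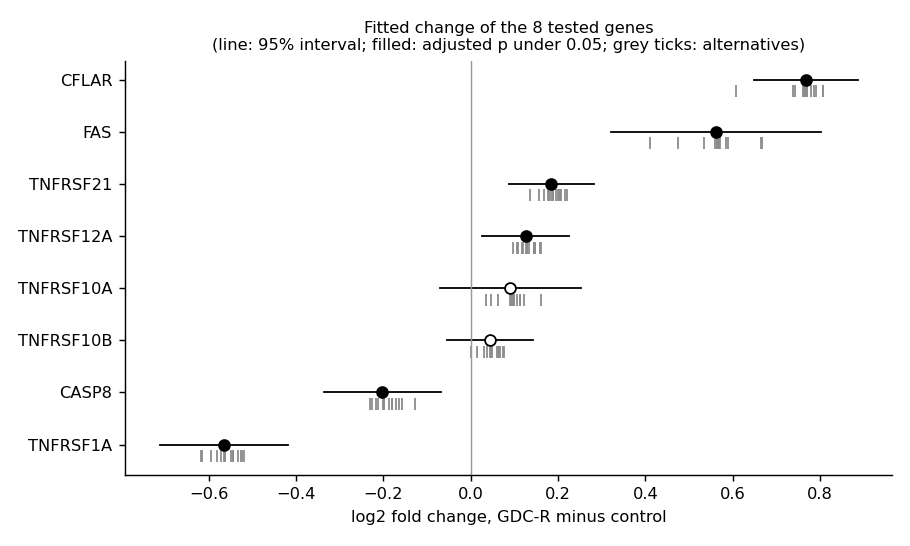
Fitted log2 fold change (x axis, GDC-R minus control) of the 8 tested genes (y axis); circles are the edgeR fit, filled where the adjusted p is under 0.05, lines are 95% intervals and grey ticks are the values under the alternatives. CFLAR (0.77), FAS (0.56) and TNFRSF1A (-0.57) lie far from 0, and the intervals of TNFRSF10A and TNFRSF10B include 0.

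Within each library, the CFLAR level was set against that of CASP8, the inhibitor against the protease it resembles. The log2 ratio of CFLAR to CASP8 FPKM was -1.90, -1.82 and -1.88 in the control libraries and -0.87, -0.85 and -0.96 in the resistant libraries. CASP8 remained the higher of the pair per length of its model in all 6 libraries, and the ratio was higher in each resistant library than in any control library. The means were -1.86 ± 0.0386 and -0.894 ± 0.0568 (SD, n = 3 each), a difference of 0.97 (two-sided exact permutation test, p = 0.1, the smallest that 3 against 3 libraries allow). Leaving out any library gave differences of 0.95 to 1.00. The difference does not depend on the lengths of the gene models, whereas the level of the ratio does.

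**Figure D4:**
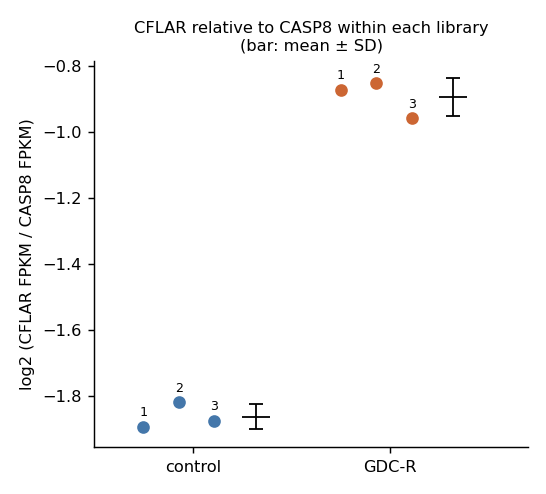
Log2 ratio of CFLAR to CASP8 FPKM (y axis) in each control and GDC-R library; points are libraries numbered by replicate and the bar is the mean ± SD. The control libraries sit between -1.90 and -1.82 and the resistant libraries between -0.96 and -0.85.

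By level per length, TNFRSF12A came first in both groups, followed by TNFRSF21. In control cells TNFRSF1A came next, at 31.4 ± 2.31 FPKM, and then TNFRSF10B at 25.5 ± 0.805 FPKM (SD, n = 3). In resistant cells this order was exchanged, with TNFRSF10B at 26.6 ± 0.288 FPKM and TNFRSF1A at 21.5 ± 0.950 FPKM. TNFRSF10A, CASP8, CFLAR, FAS, TNFSF10 and TNFRSF10D followed in this order in both groups. No neighbours in either order had overlapping ranges over the 3 libraries.

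Other genes of the pathway were counted from a list chosen with earlier results of the series known. Of 70 listed genes in the tables, 56 were tested, of which 17 rose, 10 fell and 29 did not pass. The share called was 48.2%, close to the 50.2% of all tested genes, and the median log2 fold change was 0.08 against -0.01 over all tested genes. Without control replicate 1, 23 rose and 16 fell, where 64.8% of all tested genes were called. With resistant replicate 1, 2 or 3 left out, 6 fell each time, while the share of all tested genes that fell was 18.7%, 18.1% and 18.5%.

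Regulators of the TNF receptor complex include the ligases BIRC3 and BIRC2, which rose. Among 19 tested genes 8 rose and 1 fell, and 10 missed the threshold, with a median of 0.19. Over all tested genes 24.5% rose and 25.7% fell, and the 47.4% called here is close to their sum. Without control replicate 1, 12 of these genes rose and 2 fell, where 31.9% of all tested genes rose and 32.9% fell. With resistant replicate 1, 2 or 3 left out, 6 rose and 0 fell each time. The shares of all tested genes were then 20.4%, 19.5% and 20% upward and 18.7%, 18.1% and 18.5% downward. Without control replicate 2, 6 rose and 1 fell, where 21.3% of all tested genes rose and 22.4% fell. BIRC3, which encodes the ubiquitin ligase cIAP2, was measured at 2.09, 1.43 and 1.44 FPKM in control and at 6.30, 6.47 and 5.98 FPKM in resistant libraries. Its log2 fold change was 1.90 ± 0.14 (SE), and 2.11 without control replicate 1. The groups were wide apart, with control replicate 1 the highest of the control libraries. BIRC2, which encodes the related ligase cIAP1, rose from 17.8 ± 3.21 to 28.4 ± 0.782 FPKM (mean and SD of 3 libraries; 0.65 ± 0.11, and 0.82 without control replicate 1), TNIP1, which encodes an A20-binding inhibitor of NF-kB, from 33.1 ± 2.47 to 61.3 ± 1.03 FPKM (0.87 ± 0.06) and the adaptor TRAF3 from 8.87 ± 0.313 to 12.7 ± 0.202 FPKM (0.50 ± 0.05). In edgeR's test these 4 genes had adjusted p-values of 7.11e-06 to 0.00158. TNFAIP3, which encodes the ubiquitin-editing enzyme A20 and is outside the naming rule, went up from 2.18 ± 0.0555 to 4.60 ± 0.168 FPKM (1.06 ± 0.07; adjusted p = 6.87e-06). XIAP, a direct caspase inhibitor also outside the naming rule, did not pass, with a log2 fold change of 0.04 ± 0.13. Without control replicate 1 XIAP was higher by 0.24 and passed (edgeR adjusted p = 9.61e-05).

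Among 8 tested adaptors and other genes of the death-inducing complex besides CFLAR and CASP8, 2 rose and 1 fell, and 5 missed the threshold, where 24.5% of all tested genes rose and 25.7% fell. Without control replicate 1, 3 rose and 3 fell, as with the GC correction. The shares of all tested genes that rose and fell were then 31.9% and 32.9%, and with the GC correction 31.3% and 32.1%. PEA15, a death effector domain protein that binds FADD, was measured at 67.5, 66.8 and 66.6 FPKM in control and at 109.5, 108.5 and 109.6 FPKM in resistant libraries, a log2 fold change of 0.69 ± 0.04 (SE; edgeR adjusted p = 3.33e-06). The groups did not overlap. FADD, chosen after its values were seen, was at 58.3 ± 3.42 and 54.9 ± 0.723 FPKM (SD, n = 3 each), with a log2 fold change of -0.10 ± 0.05 (adjusted p = 0.115). FADD passed as lower without control replicate 1 (-0.14, edgeR adjusted p = 0.000877) and with the GC correction (-0.15, adjusted p = 0.00153).

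Among other receptors and ligands, changes went both ways. Tests were made on 9 other receptor genes, of which 3 rose, 2 fell and 4 missed the threshold, a share of 55.6% called against 50.2% of all tested genes. TNFRSF11A (RANK) fell from 19.99 ± 0.392 to 8.501 ± 0.357 FPKM (mean and SD of 3 libraries; log2 change -1.25 ± 0.05, SE; edgeR adjusted p = 9.94e-07). TNFRSF25 (DR3), a receptor with a death domain, rose from 2.55 ± 0.243 to 4.92 ± 0.141 FPKM (0.92 ± 0.09), and its ligand gene TNFSF15 (TL1A) from 1.26 ± 0.221 to 2.18 ± 0.0972 FPKM (0.77 ± 0.12, and 0.93 without control replicate 1). This pair was chosen after its values were seen, with adjusted p of 8.37e-05 and 0.00105. LTB, which encodes lymphotoxin beta and was chosen in the same way, had a log2 fold change of 2.06 ± 0.35 (adjusted p = 0.00137) and of 2.77 without control replicate 1, where it was at 0.991 FPKM against 0.433 and 0.255 in control replicates 2 and 3. LTB averaged 0.560 FPKM in control and 2.42 FPKM in resistant libraries. Like TNFRSF11B, it passed the filter on low values only through the resistant group. Of 7 listed ligand genes other than TNFSF10, 3 were tested, of which 2 rose and 1 did not pass, where 24.5% of all tested genes rose. The 2 that rose were TNFSF15 and LTB, both low. With a mean FPKM of at least 5, only TNFSF12 was tested, and it did not pass.

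Downstream of caspase-8, among 14 tested executioner and mitochondrial genes 2 rose and 4 fell, and 8 missed the threshold, with a median log2 fold change of -0.06. Over all tested genes 24.5% rose and 25.7% fell. The counts were 3 higher and 7 lower without control replicate 1, and 4 higher and 7 lower with the GC correction. Of all tested genes, 31.9% rose and 32.9% fell without control replicate 1, and 31.3% rose and 32.1% fell with the GC correction. With resistant replicate 1, 2 or 3 left out, 1, 1 and 2 of the 14 genes rose, and 2 fell each time. The shares of all tested genes were then 20.4%, 19.5% and 20% upward and 18.7%, 18.1% and 18.5% downward. Without control replicate 2, 1 rose and 3 fell, where 21.3% of all tested genes rose and 22.4% fell. BID, the caspase-8 substrate that links to the mitochondrion, rose from 28.2 ± 2.08 to 34.7 ± 0.922 FPKM (mean and SD of 3 libraries; 0.28 ± 0.06, SE). CASP6, an executioner caspase, fell from 16.4 ± 0.738 to 13.1 ± 0.530 FPKM (-0.35 ± 0.07), and DFFA, the inhibitor of the caspase-activated nuclease, from 22.8 ± 0.574 to 19.1 ± 0.518 FPKM (-0.27 ± 0.05). In edgeR's test these 3 genes had adjusted p-values of 0.00161 to 0.0041. CYCS (cytochrome c) was lower by a log2 change of -0.65 ± 0.20 (adjusted p = 0.0245 in edgeR's test). Control replicate 1 was at 69.0 FPKM against 40.3 and 38.5 in control replicates 2 and 3, and without it the change was smaller, at -0.32, but passed (adjusted p = 1.03e-07). The CYCS call was lost without resistant replicate 1, 2 or 3, in DESeq2 and in both limma fits, and processed copies of this gene elsewhere in the genome leave its count uncertain. MLKL, the membrane-disrupting effector of necroptosis, fell from 12.6 ± 0.683 to 7.78 ± 0.228 FPKM (-0.72 ± 0.06; adjusted p = 4.07e-05), while RIPK3, the kinase that activates it, had 1 fragment in each group of 3 libraries and was chosen after its values were seen. Of the proteases that shed receptors, ADAM10 had a log2 fold change of -0.22 ± 0.07, a call lost without resistant replicate 1, 2 or 3 and with a mean FPKM of at least 5. It was -0.14 without control replicate 1 and -0.11 with the GC correction. ADAM17, chosen after its values were seen, did not pass.

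**Figure D5:**
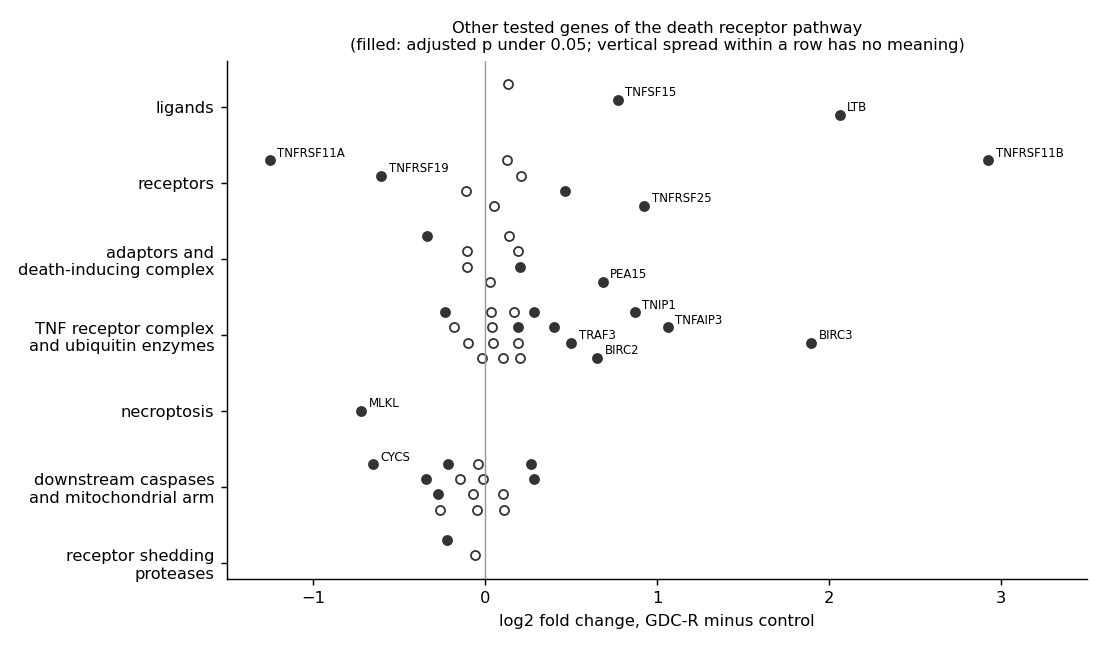
Log2 fold change (x axis, GDC-R minus control) of the 56 other tested pathway genes, grouped by role (y axis); filled circles have an adjusted p under 0.05 in edgeR's test and names are given where such a change is at least 0.5. The largest increase is TNFRSF11B (2.92) and the largest decrease TNFRSF11A (-1.25). TNFRSF11B and LTB passed the filter on low values only through the resistant group, and genes under the filter are not drawn.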

How the data were processed

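Total RNA of 3 control and 3 resistant PC-3 libraries was sequenced. Per the submitters' processing notes, TopHat2 2.0.6 and hg19 were used; the counter, the gene models and the use of strand were not stated there. The deposited gene-level fragment counts are whole and unnormalized, per the file headers. The deposited FPKM is the authors' count per kilobase of gene model, scaled to 1 fragment total per library, and the deposited score (FPM) is the same without the length, used here only to recover that total. Gene counts summed to 5.56% to 5.84% above it.

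The 10 genes, the lists and the tests were chosen with earlier results of these data known. Of 27734 rows, 849 whose symbol occurs more than once were dropped, and the 13070 genes averaging 1 FPKM or more were tested with edgeR 4.0.16 in R 4.3.3 (quasi-likelihood, TMM, group as the only term, all 6 libraries, Benjamini-Hochberg adjusted p under 0.05). The pipeline was tested on simulated data. FPKM means carry the SD of 3 libraries; fold changes carry a standard error from the quasi-likelihood F statistic, and 95% intervals use its degrees of freedom. Single ratios were compared by two-sided exact permutation. All 10 genes were named, and on each list up to 4 genes that passed with the largest change and a mean of at least 5 FPKM in the higher group, or else the most abundant, and genes that overlap or adjoin CFLAR, CASP8 or the TRAIL receptor genes; other names on the lists are said to be chosen after their values were seen. Alternatives were DESeq2 1.42.0, limma-trend (limma 3.58.1) on log2(FPKM + 1) and log2(FPKM + 0.1), RLE factors, library totals, other filters, a replicate block, a GC correction (loess, span 0.3, transcript GC from GENCODE 29, found for 95.7% of tested genes) and each library left out. Promoter windows are from RefSeq on GRCh38.p14; no coordinates were converted. The biological coefficient of variation was 7.17%, so changes of a few percent were near the limit of the test.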

Additional observations from a re-analysis of the deposited data

How the results depend on the processing

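Of 118 fitted changes of the 8 tested genes under alternatives, 105 kept their direction and side of the threshold, 12 (all of TNFRSF12A or CASP8) lost the call, and 1 changed sign: TNFRSF10B was at -0.000394 with the GC correction. With the GC correction 1 of the 8 genes fell (32.1% of all tested genes did), and 41 of the other pathway genes were called, 16 of them lower, where 63.4% of all tested genes were called. With a mean FPKM of at least 5, 2 genes of the set rose (25.9% of all tested genes did), since CFLAR and FAS fell below that filter. With each library left out in turn, the number of the 8 genes that fell was 1 to 2, and that of the other pathway genes 6 to 16, while 18.1% to 32.9% of all tested genes fell. Correlations of same-numbered deviations over genes were -0.01, 0.05 and -0.09, within the range of -0.13 to 0.14 of the other pairings. Deviations cancel out within each group, so these correlations cannot show whether replicate numbers pair the libraries. With the replicate block 3 of the 8 genes rose and 2 fell, and 6281 genes (48.1%) were called in all. The difference of the CFLAR to CASP8 ratio was then 0.97. The median log2 fold change of all tested genes was -0.01 to 0.02 under every setting. The depth limits TNFSF10, TNFRSF10D and TNFRSF10C, whose counts were 60 or fewer in every library.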

Other observations

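Some ligand and receptor genes of the TNF family were under the filter on low values and are given from the edgeR fit without it, chosen after their values were seen. TNFRSF1B, which encodes TNF receptor 2, had 36, 33 and 29 fragments in the control libraries and 10, 11 and 11 in the resistant libraries, a log2 fold change of -1.67 ± 0.29 (Benjamini-Hochberg adjusted p = 0.000286), where 19.0% of 22112 genes fell. TNF, the ligand of both TNF receptors, had 0, 1 and 0 fragments in control and 1, 8 and 3 in resistant libraries (adjusted p = 0.0664). LTA, which encodes lymphotoxin alpha, had 0, 2 and 1 fragments in control and 5, 3 and 8 in resistant libraries (adjusted p = 0.0767). Neither ligand passed the test at these counts. HCFC1R1, the gene after TNFRSF12A by start position, rose by 0.63 ± 0.10 on the log2 scale.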
